A study of Mus musculus with 6 samples.

Results

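The 71 members described here are the mitochondrial ribosomal proteins measured on the array: every gene with a symbol starting Mrpl or Mrps and a digit that had a probe set of its own. They comprise 43 Mrpl genes (large subunit by symbol) and 28 Mrps genes (small subunit by symbol), of 22180 genes measured. A gene entered when at least 1 transcript cluster, the array's unit for a gene's probes, was annotated with that symbol alone, and the brightest such cluster over the 6 arrays was used. The members had 80 such clusters in all. Mrpl30, Mrpl33, Mrpl41, Mrpl43, Mrpl44, Mrpl53 and Mrps6 were annotated only on clusters shared with another gene and are therefore not among the members.

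The mitochondrial ribosome translates the few messenger RNAs of the mitochondrial genome, which encode core subunits of the respiratory chain and of ATP synthase. Its RNAs are transcribed in the mitochondrion, whereas its proteins are encoded in the nucleus, made in the cytosol and imported. The large subunit forms peptide bonds and holds the exit tunnel, which faces the inner membrane, and the small subunit decodes the messenger. Many of these proteins have bacterial homologues, and others occur only in mitochondria.

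RNA came from RET cells, a mouse melanoma line labelled as strain C57BL\6. The 3 control cultures carried a non-targeting short hairpin RNA (shRNA), and their titles also hold the word GFP, which was not interpreted. The 3 silenced cultures carried Angpt2 shRNA-1, directed against the gene for the secreted ligand angiopoietin-2. Both groups grew in high-glucose DMEM with foetal calf serum, penicillin/streptomycin and non-essential amino acids, and were lysed 24 h after seeding at equal cell numbers. With 1 hairpin and no rescue, loss of Angpt2 cannot be told apart from anything else this hairpin does, nor from prior differences of the cells. The labels call the cultures biological replicates without saying how they were separated, so p-values measure the spread between these samples. Values are normalised intensities on a linear scale, listed in the order of replicates 1, 2 and 3. Differences are log2 values of silenced minus control, so 1 is a 2-fold difference, and intensities of different genes are not compared as expression levels because probe sets differ in brightness.

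Angpt2 had an intensity of 195, 372 and 326 in control cultures 1, 2 and 3 and 100.2, 122 and 122 in silenced cultures 1, 2 and 3. The groups did not overlap, and Angpt2 was -1.33 (SE 0.21, 95% confidence interval -1.81 to -0.85) (2.51-fold lower), but its limma adjusted p over all genes was 1.00. With the replicate number as a block it was 0.046, and without control culture 1 the difference was -1.61 with a limma adjusted p of 0.0116. Under every other alternative the limma adjusted p of Angpt2 stayed above 0.05, the lowest being 0.21 with array weights. Array medians over genes lay between 87.8 and 90.02. The 7 melanocyte-lineage markers Sox10, Mitf, Pmel, Tyr, Tyrp1, Dct and Mlana had intensities of 1387 to 9651. The 12 measured markers of immune, endothelial, epithelial and fibroblast cells had intensities of 46.1 to 103, and none was listed at 0. Their summed intensity was 814 to 831 in control and 815 to 838 in silenced cultures. Ret, listed with the markers as the oncogene of the line, had intensities of 74.2 to 88.3, within the range of those 12 markers. Whether this mouse probe set reads the oncogene carried by the line was not tested. These intensities therefore do not say whether the oncogene was expressed.

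Promoter sequences are shown for the 3 members with the lowest unadjusted p-values (Mrpl16, Mrpl39 and Mrps11), for Mrpl46, which faces Mrps11, and for Mrps18b, the member with the lowest log2 difference. These genes were picked after their values were seen. Each sequence runs 5′ to 3′ along the gene from 250 bases before to 50 bases after the RefSeq start (build GRCm38.p6). Capitals mark matches to the motifs searched on both strands: CCGGAAG (ETS factors such as GABP), GCGCATGCG (NRF1), AANATGGCG (YY1), CCAAT (the box bound by NF-Y), CACGTG (the E-box of MYC and other factors) and TATAAA (the TATA box). Mrpl16 lies on the plus strand (chr19:11770165-11770464) and holds a TATAAA match. Mrpl39 lies on the minus strand (chr16:84735195-84735494) and holds a CCAAT match and an NRF1 match, a palindrome read on both strands. Mrps11 (chr7:78782881-78783180, plus strand) holds a YY1 match on the reverse strand, and Mrpl46 (chr7:78783040-78783339, minus strand) holds a TATAAA match. Mrps18b (chr17:35916391-35916690, minus strand) holds an NRF1 match and an ETS match.
Mrpl16: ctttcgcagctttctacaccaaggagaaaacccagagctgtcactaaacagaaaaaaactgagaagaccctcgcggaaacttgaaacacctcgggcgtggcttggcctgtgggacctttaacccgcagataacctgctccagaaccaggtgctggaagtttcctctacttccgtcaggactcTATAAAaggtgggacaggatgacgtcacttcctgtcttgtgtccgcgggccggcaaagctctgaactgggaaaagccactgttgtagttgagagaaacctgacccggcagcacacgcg
Mrpl39: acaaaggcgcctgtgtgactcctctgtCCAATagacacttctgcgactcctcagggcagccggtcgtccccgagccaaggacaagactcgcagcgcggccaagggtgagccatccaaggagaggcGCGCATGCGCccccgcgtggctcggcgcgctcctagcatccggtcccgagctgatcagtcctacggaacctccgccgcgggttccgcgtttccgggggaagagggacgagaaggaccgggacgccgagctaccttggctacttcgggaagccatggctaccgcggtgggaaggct
Mrps11: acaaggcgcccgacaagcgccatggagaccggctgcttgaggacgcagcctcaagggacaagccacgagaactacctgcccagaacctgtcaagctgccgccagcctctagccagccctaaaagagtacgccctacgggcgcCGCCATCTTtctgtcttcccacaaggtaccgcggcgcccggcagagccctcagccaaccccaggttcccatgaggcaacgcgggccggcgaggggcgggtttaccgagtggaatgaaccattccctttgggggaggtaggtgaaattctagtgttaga
Mrpl46: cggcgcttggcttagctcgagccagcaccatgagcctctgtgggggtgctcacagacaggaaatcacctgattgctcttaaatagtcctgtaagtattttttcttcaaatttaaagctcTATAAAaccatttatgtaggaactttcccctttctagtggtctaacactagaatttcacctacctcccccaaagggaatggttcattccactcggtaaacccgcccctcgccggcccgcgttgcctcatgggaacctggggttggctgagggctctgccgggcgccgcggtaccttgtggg
Mrps18b: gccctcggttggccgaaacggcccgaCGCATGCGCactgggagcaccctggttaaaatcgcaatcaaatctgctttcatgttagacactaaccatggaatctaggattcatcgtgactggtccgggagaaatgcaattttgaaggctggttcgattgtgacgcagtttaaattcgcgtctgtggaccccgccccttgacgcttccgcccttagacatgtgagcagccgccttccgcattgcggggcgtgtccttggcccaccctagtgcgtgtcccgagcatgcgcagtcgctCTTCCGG

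Among 68 promoter windows found for 62 of the 71 members, 23 (33.8%) held CCGGAAG, against 11.6% of 21262 windows of protein-coding genes and 8.86% of all 32851 windows of this length. GCGCATGCG was in 7 windows (10.3%, against 2.35% and 1.75%), and AANATGGCG was in 11 (16.2%, against 3.12% and 2.38%). At least 1 of these 3 motifs was in 34 windows (50%, against 15.8% and 12.1%). CCAAT was in 27 (39.7%, against 38.2% and 37.4%), CACGTG in 7 (10.3%, against 7.84% and 7.15%) and TATAAA in 5 (7.35%, against 12.6% and 13.6%). Different motifs did not overlap in any member window. A match says only that these letters are present. The median GC content was 58.5% in member windows and 56.3% in windows of protein-coding genes. The comparison windows were not matched to the members for GC content or for brightness on the array. The median log2 difference was 0.02 in the 23 members with CCGGAAG and 0.04 in the 39 without it. It was 0.06 in the 11 members with AANATGGCG and 0.02 in the other 51, and 0.01 in the 7 with GCGCATGCG and 0.04 in the other 55.

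Transcripts of the mitochondrial ribosomal proteins had a median log2 difference of 0.03 between silenced and control cultures, 0.03 in the large and 0.03 in the small subunit. With 1 array left out these medians ran from 0.033 (without control culture 2) to 0.071 (without control culture 1) in the large subunit and from 0.0049 (without control culture 2) to 0.059 (without control culture 3) in the small subunit. No member of either subunit passed the test, 0 of 71 against 0% of all 22180 genes (limma, Benjamini-Hochberg adjusted p under 0.05), and each member's limma adjusted p was 1.00. The middle of the distribution ran from -0.02 to 0.13 (quartiles), and the whole range from -0.34 for Mrps18b to 0.49 for Mrps11. The difference lay within 0.1 of 0 in 38 members and within 0.2 in 62. Means differed by more than 1.2-fold in 5 members. Among the 35 members named for their size of difference, spread or role, the difference moved by over 1.5 times in 32 when 1 array was left out, the exceptions being Mrpl16, Mrpl39 and Mrps18c. Such a ratio passes 1.5 readily where the difference is near 0, as in Mrpl23 (-0.0003) and Mrpl24 (0.0043). The count of 32 is therefore not a measure of instability.

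The arrays limited the size of a difference that could be seen. The 95% confidence interval reached a median of 0.23 log2 (1.18-fold) to either side, and the interval of 66 members lay within 1.5-fold in either direction. Those intervals leave room for small differences. Member clusters were bright, which describes the signal of the probe sets and not relative expression. Their intensities ran from 56.3 to 1185, with a median of member means of 401 against 88.1 for all genes. Of the 71 members 69 were above the median brightness of all genes, Mrps14 and Mrps36 being the others. The median within-group SD was 0.13 log2 for members and 0.14 for genes above the median level.

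**Figure D1:**
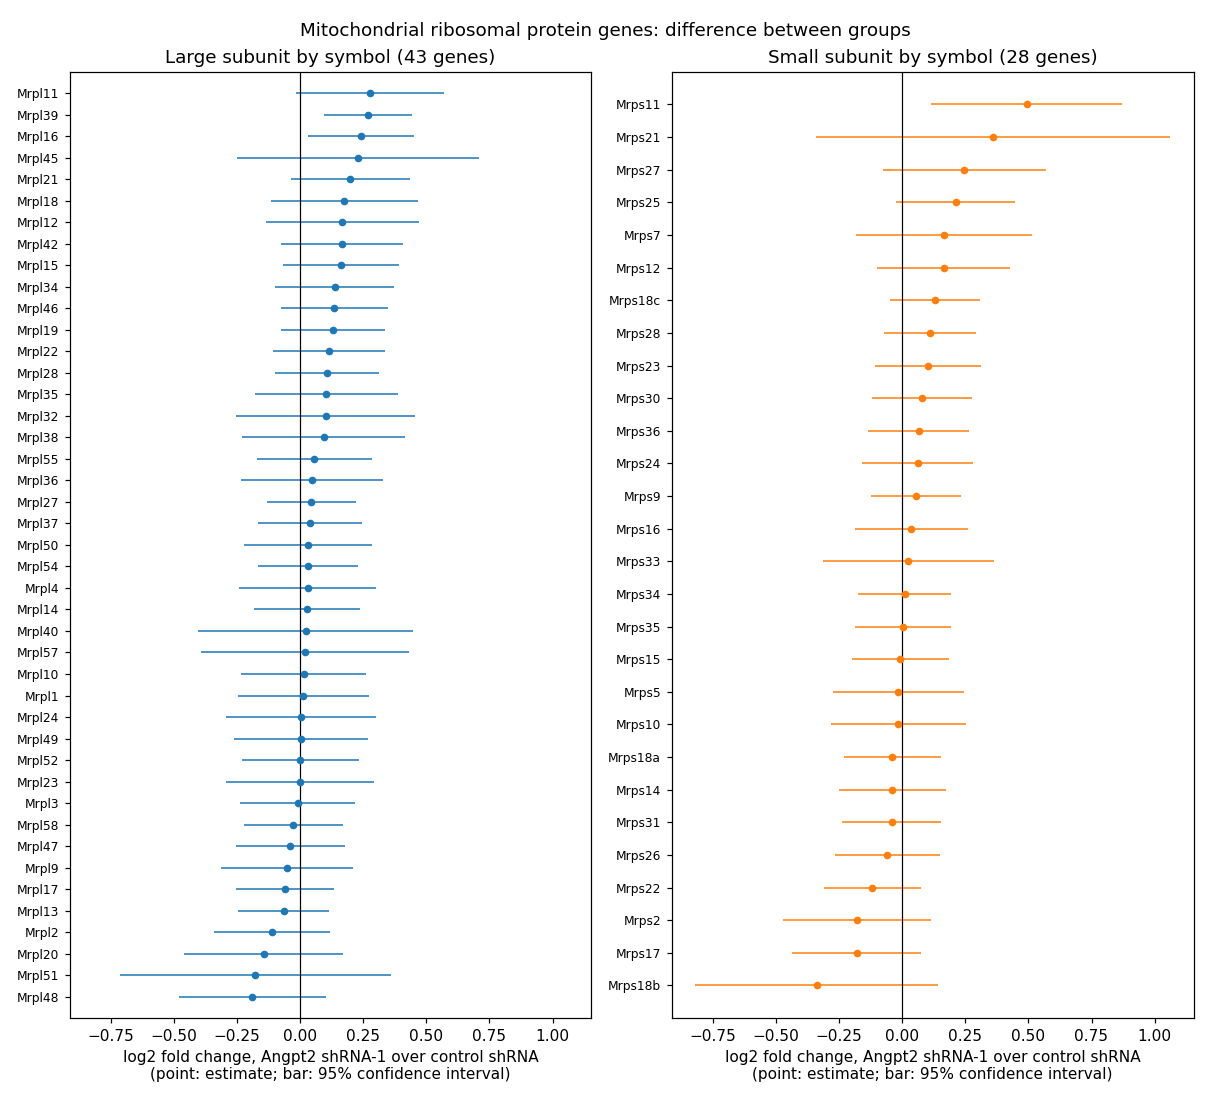
Log2 difference (silenced minus control) of each of the 71 mitochondrial ribosomal protein genes, large subunit in one panel and small subunit in the other, sorted by value; bars are 95% confidence intervals from limma. Values run from -0.34 for Mrps18b to 0.49 for Mrps11, and most intervals cross 0.

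At an unadjusted limma p under 0.05, 3 members were higher in silenced cultures, Mrpl16, Mrpl39 and Mrps11 (4.23% of members, against 1.52% of all genes), and 0 were lower (against 2.24%). The groups did not overlap in 5 members that were higher, Mrpl16, Mrpl39, Mrps9, Mrps18c and Mrps28 (7.04%, against 3.53%), and in 1 that was lower, Mrps22 (1.41%, against 5.48%). A silenced culture was higher than the control culture of the same number for all 3 numbers in 13 members (18.3%, against 10.3%), and lower for all 3 in Mrpl2, Mrps2 and Mrps22 (4.23%, against 14.8%). With the replicate number as a block, Mrpl11 and Mrps25 joined the first 3 members at an unadjusted p under 0.05, which made 5 higher (7.04%, against 1.96%) and 0 lower (against 2.62%). All these counts were taken below the adjusted threshold.

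The difference was positive in 49 members and negative in 22 (69.0% positive), against 45.2% positive over all genes and 46.0% over genes above the median level. Among large-subunit members 32 were positive and 11 negative (74.4% positive), and among small-subunit members 17 were positive and 11 negative (60.7%). With each array left out in turn, 25 to 30 of the 43 large-subunit and 15 to 18 of the 28 small-subunit members were positive. Median differences between same-numbered cultures were 0.05, 0.09 and 0.05 for the large subunit in replicates 1, 2 and 3. They were 0.02, 0.09 and 0.04 for the small subunit and -0.03, -0.02 and 0.00 for all genes.

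To compare the subunits over the 6 cultures, each member was expressed as its log2 deviation from its own mean over the arrays. The median deviation of the large subunit was -0.05, -0.06 and 0.00 in control cultures 1, 2 and 3 and 0.02, 0.04 and 0.03 in silenced cultures 1, 2 and 3. The groups did not overlap in these medians. They stayed apart under 4 alternatives that could move them (quantile normalization, centring, the mean of all clusters and the pseudocount), but overlapped without control culture 2 and without silenced culture 2. With Mrps18a and Mrps30 counted in the large subunit, where they sit, the groups were barely apart. The highest control median was then 0.0177 and the lowest silenced median 0.0181. For the small subunit the medians were 0.00, -0.05 and 0.05 in control and 0.02, 0.02 and 0.05 in silenced cultures. The small-subunit groups overlapped, control culture 3 being the highest of the 6, and overlapped too under the 6 alternatives that could move them. They did not overlap without control culture 3 or without silenced culture 2. Overlap in either subunit therefore depended on which arrays were included. No p-value is given for these medians, since the genes were chosen as a family with results known.

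**Figure D2:**
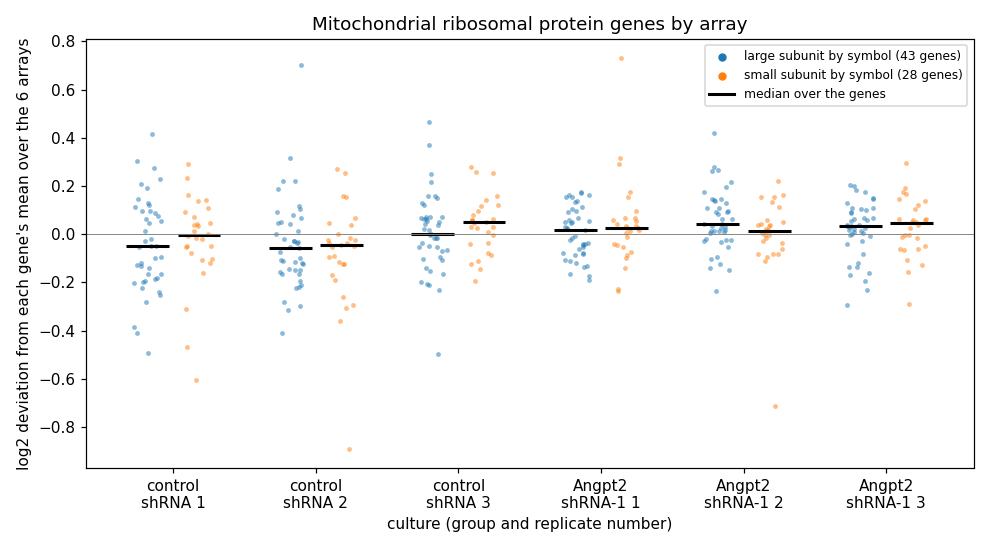
Log2 deviation of each member from its own mean over the 6 arrays, by culture, for the large and the small subunit; each point is a gene and the bar is the median of the subunit. Large-subunit medians run from -0.06 to 0.00 in control and from 0.02 to 0.04 in silenced cultures, and small-subunit medians overlap between the groups.

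The large-minus-small difference of these medians was -0.05, -0.01 and -0.05 in control cultures 1, 2 and 3 and -0.01, 0.03 and -0.01 in silenced cultures. Its mean was -0.03 (SD 0.02, n = 3) in control and 0.00 (SD 0.02, n = 3) in silenced cultures, a difference of 0.04. The groups overlapped, control culture 2 lying above silenced culture 3. Leaving out silenced culture 2 brought the difference to 0.0045, and leaving out silenced culture 1 to 0.06. This 0.04 comes from subtracting medians taken array by array. The median of the members' own log2 differences was nearly equal in the subunits, 0.0316 in the large and 0.0307 in the small. With means over members in place of medians, the large-minus-small difference was 0.0081.

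Within the large subunit, 28 members with bacterial homologues had a median difference of 0.05 (20 positive, 8 negative). The 15 members classed as mitochondria-specific had a median of 0.03 (12 positive, 3 negative), with 0.06, 0.12 and -0.10 in replicates 1, 2 and 3. In the small subunit the median was 0.05 for 16 bacterial homologues (9 positive, 7 negative) and 0.01 for 9 mitochondria-specific proteins (6 positive, 3 negative). Moving Mrps18a and Mrps30, which sit in the large subunit despite their symbols, and leaving out Mrps36 gave 33 positive of 45 large-subunit and 15 positive of 25 small-subunit members.

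Mrpl39, a large-subunit protein specific to mitochondria, had the lowest unadjusted p of the members. Its intensity was 883, 891 and 881 in control and 1052, 1046 and 1103 in silenced cultures. Every silenced culture lay above every control culture. The log2 mean was 9.79 ± 0.01 (SD, n = 3) in control and 10.06 ± 0.04 (SD, n = 3) in silenced cultures, so the difference was 0.27 (SE 0.08, 95% confidence interval 0.09 to 0.44), 1.205-fold, with an unadjusted limma p of 0.00689. It was 0.25, 0.23 and 0.32 in replicates 1, 2 and 3, and 0.25 to 0.28 with each array left out in turn. Its NRF1 match is shown above. Mrpl16, the homologue of a bacterial protein near the tRNA sites, had an intensity of 293, 309 and 323 in control and 351, 401 and 343 in silenced cultures. These groups did not overlap either, with silenced culture 2 highest. The difference was 0.24 (SE 0.09, 95% confidence interval 0.03 to 0.45), 1.18-fold, with an unadjusted limma p of 0.0284, and it was 0.17 without silenced culture 2.

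The stalk of the large subunit, where translation factors bind, is formed by Mrpl10, Mrpl11 and Mrpl12. Mrpl11 had an intensity of 209, 286 and 268 in control and 305, 336 and 278 in silenced cultures. Control culture 1 was the lowest of the 6, and the groups overlapped. The difference was 0.28 (SE 0.13, 95% confidence interval -0.02 to 0.57), with an unadjusted limma p of 0.0604 and of 0.0355 with the replicate block, and 0.14 without control culture 1. Mrpl12 had an intensity of 779, 894 and 966 in control and 814, 1118 and 1048 in silenced cultures and a difference of 0.17 (SE 0.13). Mrpl10, the protein that anchors Mrpl12 to the ribosome, had an intensity of 722, 555 and 574 in control and 604, 620.3 and 630.4 in silenced cultures and a difference of 0.01 (SE 0.11). Its dimmer second cluster gave -0.09. All 3 stalk genes had positive values, with a median of 0.17, and the groups overlapped in each.

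Around the exit of the tunnel, Mrpl45 binds the inner membrane. Its intensity was 311, 351 and 602 in control and 442, 477 and 501 in silenced cultures. Control culture 3 was the highest of the 6, and controls 1 and 2 were below all silenced cultures. The difference was 0.23 (SE 0.21, 95% confidence interval -0.25 to 0.71), and it went from 0.04 without control culture 1 to 0.52 without control culture 3. Mrpl22, Mrpl23, Mrpl24 and Mrpl47, homologues of bacterial proteins that ring the exit, gave differences of 0.11 (SE 0.10), 0.00 (SE 0.13), 0.00 (SE 0.13) and -0.04 (SE 0.10). Mrpl22 had intensities of 165, 207 and 186 in control and 199.8, 201 and 200.2 in silenced cultures, and its silenced cultures were nearly equal. Mrpl23 had intensities of 234, 298 and 331 in control and 283, 265 and 307 in silenced cultures, and Mrpl24 had intensities of 1121, 823 and 809.5 in control and 881, 875 and 977 in silenced cultures, with control culture 1 highest. Mrpl47 had intensities of 169.6, 183 and 170.1 in control and 152, 184 and 174 in silenced cultures, and its second cluster gave 0.15. The 5 exit genes had a median of 0.00.

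Mrpl21, the homologue of a bacterial protein of the large subunit, had intensities of 193, 162 and 206 in control and 203, 221 and 218 in silenced cultures, a log2 difference of 0.20 (SE 0.10). Silenced culture 1 lay below control culture 3, so the groups overlapped. At the other end of the large subunit, Mrpl48, a mitochondria-specific protein, had intensities of 90.1, 119.7 and 122 in control and 98.4, 103 and 87.5 in silenced cultures, a log2 difference of -0.19 (SE 0.13). Mrpl51, another mitochondria-specific protein, had intensities of 417, 781 and 409.6 in control and 428, 550.04 and 392 in silenced cultures. Control culture 2 stood high, and the difference of -0.18 (SE 0.24) became 0.13 without it. Mrpl20, a bacterial homologue, had intensities of 196, 232 and 291 in control and 212, 232 and 199.98 in silenced cultures, and its -0.14 (SE 0.14) became 0.01 without control culture 3. Mrpl2, a protein near the peptide-bond centre, had intensities of 527, 449.6 and 538 in control and 459, 437 and 506 in silenced cultures, a log2 difference of -0.11 (SE 0.10). It was lower for all 3 replicate numbers, though the groups overlapped. Mrpl13, a bacterial homologue, had intensities of 762, 696 and 732 in control and 693, 700.1 and 700.2 in silenced cultures, a log2 difference of -0.06 (SE 0.08).

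The spread over the 6 arrays differed among large-subunit members. Mrpl51, Mrpl45 and Mrpl40 varied most, and Mrpl27 and Mrpl13 least. Mrpl40, specific to mitochondria, had intensities of 339, 382 and 217 in control and 341, 281 and 307 in silenced cultures, a highest-to-lowest ratio of 1.76, with control culture 3 lowest and a difference of 0.02 (SE 0.19). Mrpl27, a homologue of a bacterial protein at the peptide-bond centre, had intensities of 89.1, 89.5 and 89.8 in control and 94.7, 88.9 and 93.3 in silenced cultures, an SD over arrays of 0.039 log2, and a difference of 0.04 (SE 0.08).

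Mrps11, the homologue of a bacterial protein of the small-subunit platform, had the highest difference of all members. Its intensity was 245, 303 and 414 in control and 455, 414 and 456 in silenced cultures. Control culture 3 (414.4) lay just above silenced culture 2 (414.0) and above controls 1 and 2, so the groups overlapped. The log2 mean was 8.29 ± 0.38 (SD, n = 3) in control and 8.79 ± 0.08 (SD, n = 3) in silenced cultures, so the difference was 0.49 (SE 0.17, 95% confidence interval 0.12 to 0.87), 1.41-fold, with an unadjusted limma p of 0.0161. It was 0.89, 0.45 and 0.14 in replicates 1, 2 and 3, and ranged from 0.32 without control culture 1 to 0.70 without control culture 3. Mrpl46, specific to mitochondria, starts 42 bases away on the opposite strand, so the promoters shown above overlap. Its intensity was 151, 175 and 149 in control and 172, 183 and 166 in silenced cultures and its difference 0.14 (SE 0.09).

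Mrps21, a bacterial homologue of the small subunit, had the highest spread among the members, an SD of 0.54 log2 and a highest-to-lowest ratio of 3.07. Its intensity was 217, 112 and 251 in control and 343, 202 and 186 in silenced cultures. Control culture 2 was the lowest and silenced culture 1 the highest. The difference was 0.36 (SE 0.31, 95% confidence interval -0.34 to 1.06), and it was 0.00 without control culture 2. It was 0.66, 0.85 and -0.43 in replicates 1, 2 and 3. Mrps27, a mitochondria-specific protein with repeats of the RNA-binding pentatricopeptide type, had intensities of 243, 326 and 370.3 in control and 350.03, 368 and 379 in silenced cultures, a log2 difference of 0.25 (SE 0.14) that was 0.07 without control culture 1. Mrps25, also specific to mitochondria, had intensities of 745, 675 and 842 in control and 913, 806 and 893 in silenced cultures, a log2 difference of 0.21 (SE 0.10). Its unadjusted limma p was 0.0724, and 0.0486 with the replicate block.

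At the decoding site, Mrps12 had intensities of 391, 287 and 337 in control and 364, 396 and 370.3 in silenced cultures, a log2 difference of 0.17 (SE 0.12) that was 0.053 without control culture 2. Mrps7, which in bacteria organises the head of the small subunit, had intensities of 389, 574 and 421 in control and 437, 561 and 540.3 in silenced cultures, a log2 difference of 0.17 (SE 0.16) that was 0.053 without control culture 1. The groups overlapped in both.

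The 3 paralogues of bacterial S18 gave different values. Mrps18b, a small-subunit protein, had intensities of 755, 715 and 698 in control and 799, 392 and 596 in silenced cultures. Silenced culture 1 was the highest of the 6 and silenced culture 2 the lowest. The difference was -0.34 (SE 0.21, 95% confidence interval -0.82 to 0.14), and it went from -0.58 without silenced culture 1 to -0.07 without silenced culture 2. Its second cluster gave -0.04. Mrps18c, the other paralogue in the small subunit, had intensities of 126, 131 and 132 in control and 138, 147 and 141 in silenced cultures, a log2 difference of 0.13 (SE 0.08) with no overlap, and its second cluster gave 0.04. Mrps18a, which sits in the large subunit, had intensities of 319.8, 348 and 343 in control and 348, 318 and 317 in silenced cultures, a log2 difference of -0.04 (SE 0.08).

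Among the other small-subunit members with low values, Mrps17, a bacterial homologue, had intensities of 442, 384 and 489 in control and 349.8, 387 and 421 in silenced cultures. Its difference was -0.18 (SE 0.11), but its second cluster gave 0.22 and the mean of both clusters 0.02. Mrps2, a bacterial homologue, had intensities of 272, 298 and 223 in control and 251, 247 and 202 in silenced cultures, a log2 difference of -0.18 (SE 0.13) that was negative for all 3 numbers, with overlap. Mrps22, a mitochondria-specific protein, had intensities of 435, 401 and 379 in control and 376, 367 and 375 in silenced cultures. Every silenced culture lay below every control, by narrow margins, and the difference was -0.12 (SE 0.09). Mrps26, specific to mitochondria, had intensities of 530.1, 575 and 477 in control and 511, 510.4 and 494 in silenced cultures, a log2 difference of -0.06 (SE 0.09).

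Mrps34 and Mrps9 varied least in the small subunit. Mrps34, specific to mitochondria, had intensities of 377, 378 and 346 in control and 373, 371 and 364 in silenced cultures, a log2 difference of 0.01 (SE 0.08). Mrps9, a bacterial homologue, had intensities of 377, 354 and 379 in control and 381, 382 and 391 in silenced cultures, a log2 difference of 0.06 (SE 0.08) with the groups just apart. Mrps28, a small-subunit protein related to bacterial S1, had intensities of 272, 260.4 and 282 in control and 301, 283 and 294 in silenced cultures, a log2 difference of 0.11 (SE 0.08), again without overlap. Mrps30, which sits in the large subunit, had intensities of 243, 226 and 250.1 in control and 239, 252 and 267 in silenced cultures, a log2 difference of 0.08 (SE 0.09). Mrps36, now known as a subunit of the 2-oxoglutarate dehydrogenase complex and not of the mitoribosome, had intensities of 56.3, 63.1 and 65.8 in control and 64.9, 65.7 and 62.8 in silenced cultures, a log2 difference of 0.07 (SE 0.09). Its cluster was the dimmest among the members, and without detection calls dim intensities cannot be told from background.

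**Figure D3:**
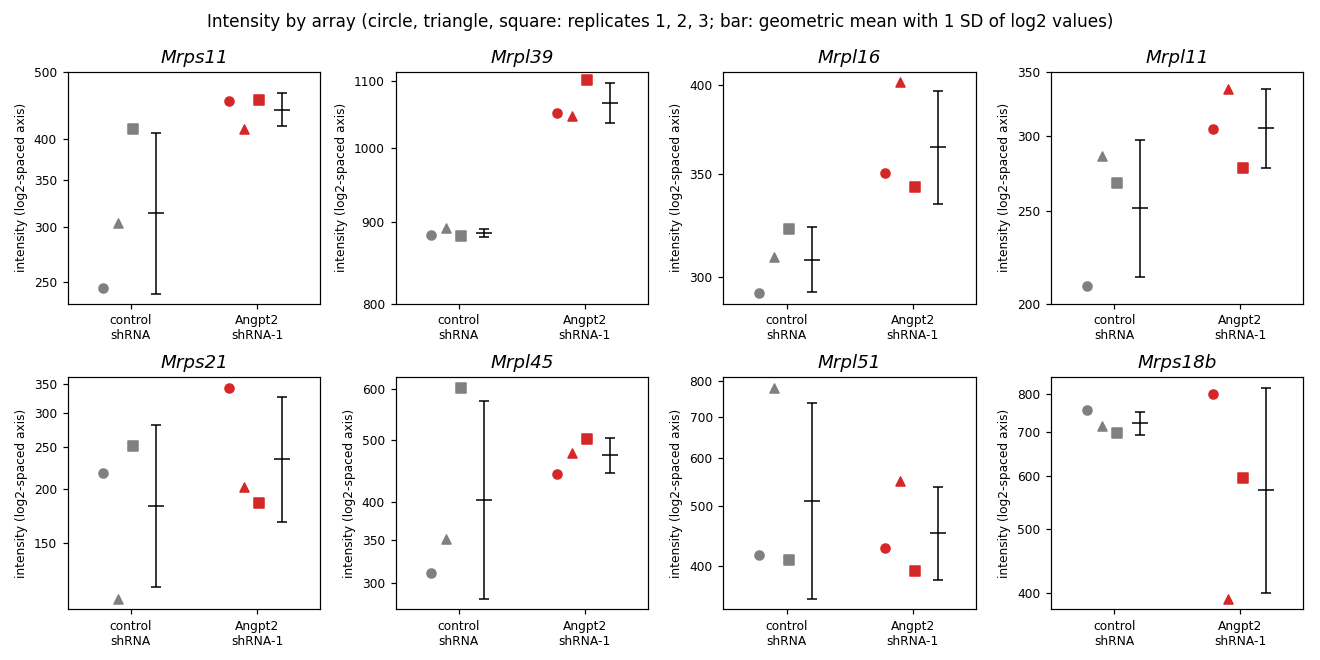
Intensity (log2-spaced axes) of Mrps11, Mrpl39, Mrpl16, Mrpl11, Mrps21, Mrpl45, Mrpl51 and Mrps18b in the 3 control and 3 silenced cultures; points are arrays, bars are geometric means with 1 SD. Mrpl39 and Mrpl16 do not overlap between groups, whereas Mrps21 (112 to 343) and Mrps18b (392 to 799) spread widely.

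Members with 2 clusters allowed a check within a gene. Of 9 such genes, the clusters gave the same sign in 5 and opposite signs in 4, Mrpl10, Mrpl47, Mrps16 and Mrps17. In Mrps17 the clusters gave -0.18 and 0.22, a gap larger than most member differences.

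Many members share a start region with another gene. Of 62 members with a RefSeq start, 21 (33.9%) had another protein-coding gene on the opposite strand starting within 1000 bases, against 8.48% of 17491 coding genes. Those coding genes were not matched to the members for brightness on the array. The 21 members made 20 pairs with starts 32 to 756 bases apart (median 141 over the 21 members). Partners had the same sign of difference in 9 of 20 pairs. Mrps11 and Mrpl46 form the pair in which both are members. Mrpl47 faces Ndufb5, a complex I subunit, 308 bases away. Ndufb5 had an intensity of 382, 339 and 341 in control and 602, 578 and 459.9 in silenced cultures, a difference of 0.62 (SE 0.12) with no overlap and a limma adjusted p of 1.00, whereas Mrpl47 had -0.04. Mrps7 and Gga3 gave 0.17 and -0.30, Mrpl32 and Psma2 gave 0.10 and 0.22, and Mrps18b and Ppp1r10 gave -0.34 and 0.04. These pairs were picked after their values were seen.

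Other genes of mitochondrial translation were read from 5 lists in the same fit. Of 66 genes measured on these lists, 34 had positive and 32 negative differences, 0 passed the limma test (0% of all genes). At an unadjusted p under 0.05, 2 were higher (3.03% of the 66, against 1.52% of all genes) and 0 were lower (against 2.24%). Of 3 mitoribosomal proteins with other symbols, Dap3 and Ptcd3 of the small subunit gave 0.08 and 0.09 and Gadd45gip1 of the large subunit gave -0.23.

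Of 15 translation and mRNA factors, 12 were positive and 3 negative (median 0.06). Mtif3, a mitochondrial initiation factor, had an intensity of 143, 144 and 148 in control and 168, 177 and 169 in silenced cultures. The groups did not overlap, and the difference was 0.24 (SE 0.08), with an unadjusted limma p of 0.0128. The elongation factor Gfm1 gave 0.14, the recycling factor Mrrf -0.03 and Taco1, an activator of Cox1 translation, -0.04.

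Of 28 assembly and rRNA-modification factors, 10 were positive and 18 negative (median -0.03). Mterf3, which is needed for large-subunit assembly and represses mitochondrial transcription, had an intensity of 123, 113 and 98.8 in control and 144, 205 and 147 in silenced cultures. Every silenced culture lay above every control. The difference was 0.55 (SE 0.15), with an unadjusted limma p of 0.00462, and 0.38 to 0.64 with each array left out in turn. Fastkd2, which binds the large rRNA, gave 0.17, Gtpbp10, a large-subunit GTPase, -0.11 and Trub2, of the pseudouridine synthase family, -0.18.

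Of 11 genes for mitochondrial DNA maintenance and transcription, 8 were positive and 3 negative (median 0.06). Polrmt, the mitochondrial RNA polymerase, had an intensity of 224, 198 and 235 in control and 332, 242 and 236 in silenced cultures and a difference of 0.29 (SE 0.14). The groups did not overlap in Polrmt, where silenced culture 3 lay just above control culture 3, and the difference was 0.13 without silenced culture 1. Tfam, which packages mitochondrial DNA and starts its transcription, had an intensity of 227, 268 and 178 in control and 273, 272 and 262 in silenced cultures and a difference of 0.28 (SE 0.14). Its groups overlapped, and the difference was 0.13 without control culture 3. Mterf1a gave -0.18 and Tfb2m, a transcription initiation factor, -0.12. Of 9 nuclear regulators of mitochondrial genes, 2 were positive and 7 negative (median -0.05), with Pprc1 at 0.07, Ppargc1a at 0.05, Nrf1 at -0.09 and Ppargc1b at -0.09.

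**Figure D4:**
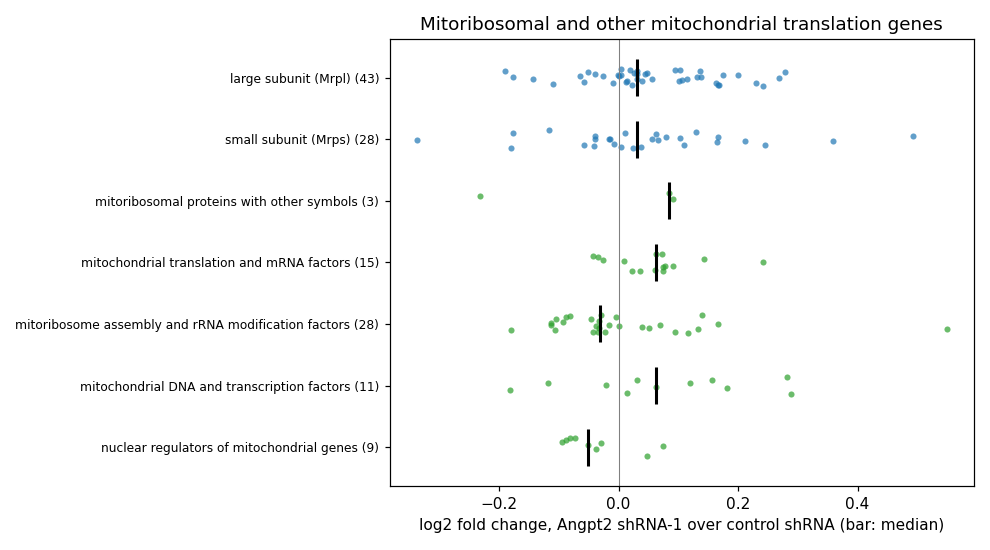
Log2 difference (silenced minus control) of each gene of the large subunit, the small subunit and 5 lists of other mitochondrial translation and transcription genes; each point is a gene and the bar is the median. Medians lie between -0.05 for the nuclear regulators and 0.08 for the mitoribosomal proteins with other symbols.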

How the data were processed

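Deposited values hold the intensity of each transcript cluster on Affymetrix Mouse Gene 2.0 ST arrays, 1 array per sample hybridised from 100 ng of total RNA, per the labels. They were already normalized by the authors, on a linear scale as read from the values. The method of background correction, probe summary and normalization was not given in the sources used here. Of 41345 clusters, 23521 had exactly 1 gene symbol in GEO's platform annotation, which left 22180 genes. Gene IDs of 71 of 71 members were in the RefSeq table (GRCm38.p6), and promoter windows were found for 62 of them.

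Log2 intensities, with no further normalization, were fitted in limma 3.58.1 under R 4.3.3 (lmFit, then eBayes, 2-sided). Benjamini-Hochberg adjustment ran over the 22180 genes, at a threshold of 0.05. The fit was also run on simulated data with added differences larger than that of any member. That run therefore says nothing about differences of the size seen in the members. The members and lists were chosen with earlier results of these data known. Named members were those at an unadjusted p under 0.05, the 5 highest and 5 lowest differences of each subunit, the 3 most and 2 least variable of each subunit, and the members of the named roles. From each list the 2 highest and 2 lowest genes were named. Other genes, the motif search and the search for facing genes were chosen after values were seen. The number of arrays limits the precision, and the table carries no detection calls.

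Both groups share the replicate numbers 1, 2 and 3. Across genes, same-numbered arrays had deviations from their group means that correlated at 0.128, 0.211 and 0.143, and no array had a higher correlation with another number. The numbers were therefore taken as pairs, from the data, in the replicate block and in the comparisons of same-numbered cultures. The main fit held no block, and SEs and p-values come from it unless the block is named. With the block the unadjusted limma p was 0.0142 for Mrpl39, 0.0334 for Mrpl16 and 0.00653 for Mrps11. The labels do not say what a number marks. Correlations between arrays of a group ran from 0.983 to 0.993.

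Alternatives were the replicate block, quantile normalization, centring of arrays, 2 filters on dim genes (median level, or 33rd percentile), averaging a gene's clusters, trend and robust options, array weights, a pseudocount of 16, and fits without 1 array at a time.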

Additional observations from a re-analysis of the deposited data

How the results depend on the processing

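No member passed the adjusted threshold under any of the 9 alternatives with 6 arrays or with any 1 array left out (limma). The number of members at an unadjusted p under 0.05 was 5 with the replicate block and 2 to 10 with 1 array left out, against 3. With 1 array left out the median difference ranged from 0.033 to 0.071 in the large and from 0.0049 to 0.059 in the small subunit. The large-minus-small difference ranged from 0.0045 to 0.059 there and was 0.0081 as a mean over members. The Angpt2 difference kept its value of -1.33 with the replicate block, where its limma adjusted p was 0.046, and ranged from -1.61 to -1.14 with 1 array left out. The replicate block gave 2 called genes over the whole table, Angpt2 and Pld4 (named after its values were seen), against 0, and changed no call of a member or of a gene on the lists. The trend and robust options called Pld4, and the fit without control culture 1 called Angpt2. Without control culture 2 the calls were Btbd35f12 and Plekho1, also named after their values were seen. Every other setting called 0 genes.

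Of 54 named genes, 18 changed sign under at least 1 setting, 10 of them among 35 named members. With the mean of all clusters, Mrpl10 gave -0.038, Mrpl47 0.054 and Mrps17 0.018. Mrpl23 gave 0.013 after quantile normalization and 0.0047 after centring, and with array weights Dap3 gave -0.0063 and Mrrf 0.0013. With 1 array left out the ranges were -0.057 to 0.13 for Mrpl10, -0.28 to 0.0051 for Mrpl20, -0.14 to 0.11 for Mrpl23, -0.078 to 0.16 for Mrpl24, -0.22 to 0.19 for Mrpl40, -0.097 to 0.038 for Mrpl47, -0.34 to 0.13 for Mrpl51, -0.13 to 0.0060 for Mrps26 and -0.032 to 0.033 for Mrps34. For the other genes they were -0.071 to 0.25 for Dap3, -0.090 to 0.021 for Mrrf, -0.38 to 0.16 for Nrf1, -0.095 to 0.27 for Ppargc1a, -0.25 to 0.055 for Ppargc1b, -0.067 to 0.17 for Pprc1, -0.075 to 0.0061 for Taco1 and -0.26 to 0.16 for Tfb2m. The cause was not tested. No member symbol marked a pseudogene, so that alternative gave no value. The filters on dim genes removed 2 members (median) and 1 member (33rd percentile).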
